A study of Mus musculus with 12 samples.

Results

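The genes described here serve the unfolded protein response, the amino acid response and the heat shock response, which are the main programs by which a cell meets damaged or surplus protein and a shortage of amino acids. The list held 44 genes, named by symbol and not by their values. All probe sets carrying these symbols were taken, and each gene was read from its brightest probe set, the one of highest mean log2 signal over the 12 arrays. In this way 43 of the 44 genes were measured, by 94 probe sets in all, among 12393 genes and 22626 probe sets on the array. Hsp90ab1 was not read by a probe set used here.

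In the endoplasmic reticulum (ER) unfolded protein draws the chaperone Hspa5 away from membrane sensors such as Ern1 and Atf6. Ern1 then splices the mRNA of the transcription factor Xbp1, Atf6 is cut free to act in the nucleus, and both raise chaperones, folding enzymes and the machinery that passes misfolded protein out for degradation. Lack of amino acids, or ER stress, slows translation in general but favours that of Atf4, whose targets include Ddit3, Trib3, Asns, the serine pathway enzymes, amino acid transporters and tRNA synthetases. Heat and other proteotoxic stress act through heat shock factors on cytosolic and mitochondrial chaperones. Blood stem and progenitor cells are known to depend on low rates of protein synthesis and on these responses.

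These programs are read at known short DNA motifs, and promoters with matches to them are shown first. Not every gene had a match, and the grouping by role below does not rest on them. The counts given are of genes and the percentages are of windows. RefSeq promoter windows of build GRCm38.p6, 250 bases before to 50 after a start, were held for 36 of the 44 genes (42 windows of 32851). On either strand the ER stress element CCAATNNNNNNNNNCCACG was found in the windows of 6 genes (Calr, Canx, Dnajc3, Hsp90b1, Hspa5, Pdia6) and in 0.119% of all windows. The related ATTGGNCCACG was found for Herpud1 alone and in 0.0365% of all windows, and TGACGTGG for none and in 0.676%. The amino acid response motif TGATGNAA was found for 7 genes (Aars, Asns, Chac1, Gars, Herpud1, Slc7a11, Trib3) and in 3.97% of all windows. The heat shock motif GAANNTTCNNGAA was found for Hspd1, Hspe1 and Hsph1 and in 0.603% of all windows. In these genes matches of different motifs did not overlap. A match is a string of letters and not a bound site. In these stretches, which all lie before the start and are written on the strand of the gene, capitals mark the matches of either strand.
Hspa5, chr2:34772010-34772058, + strand: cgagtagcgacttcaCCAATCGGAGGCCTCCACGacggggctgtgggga
Calr, chr8:84847060-84847108, - strand: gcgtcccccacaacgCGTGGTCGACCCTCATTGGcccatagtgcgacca
Dnajc3, chr14:118937812-118937860, + strand: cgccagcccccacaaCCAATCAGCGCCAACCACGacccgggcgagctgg
Hsp90b1, chr10:86705518-86705671, - strand: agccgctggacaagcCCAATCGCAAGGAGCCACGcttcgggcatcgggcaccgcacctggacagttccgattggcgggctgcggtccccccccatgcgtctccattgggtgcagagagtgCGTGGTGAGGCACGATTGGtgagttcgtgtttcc
Herpud1, chr8:94386302-94386402, + strand: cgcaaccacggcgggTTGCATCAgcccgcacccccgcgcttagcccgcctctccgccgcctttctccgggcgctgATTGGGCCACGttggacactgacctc
Asns, chr6:7693210-7693247, - strand: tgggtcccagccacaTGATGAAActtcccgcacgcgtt
Chac1, chr2:119351034-119351071, + strand: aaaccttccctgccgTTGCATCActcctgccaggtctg
Gars, chr6:55037956-55037993, + strand: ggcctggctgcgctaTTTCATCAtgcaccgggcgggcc
Slc7a11, chr3:50443638-50443694, - strand: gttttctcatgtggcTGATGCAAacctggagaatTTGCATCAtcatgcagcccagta
Hspe1, chr1:55088044-55088091, + strand: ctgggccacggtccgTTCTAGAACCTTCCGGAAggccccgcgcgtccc
In the Slc7a11 stretch the amino acid response motif stands once on each strand, and in that of Hspe1 the 2 heat shock matches overlap. Hspd1 and Hspe1 lie head to head, so that the same bases gave the matches of both. Herpud1 was the single gene with both an ER stress and an amino acid response match.

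The study asked what NUP98-HOX fusions, leukemogenic joins of a nucleoporin to a homeodomain protein, do to gene expression in primitive blood cells soon after their introduction. Marrow came from (C57Bl/6Ly-Pep3b x C3H/HeJ) F1 mice older than 12 weeks that had been given 5-fluorouracil at 150 mg/kg 4 days earlier. It was prestimulated for 48 hours with interleukin-6, interleukin-3 and stem cell factor, cocultured with irradiated GP+E86 virus producer cells for 2 days and grown for 24 hours more. Sca-1+Lin- cells expressing GFP were then sorted, and their RNA was amplified for MOE430A arrays. There were 4 groups of 3 arrays, numbered 1 to 3 and described as independent experiments. The groups were cells with the empty GFP vector (GFP control), NUP98-HOXD13 (ND13), NUP98-HOXA10 (NA10) and ND13(N51S), a form of ND13 whose mutated homeodomain is held not to bind DNA. All fusions were expressed from a murine stem cell virus vector, all groups shared fluorouracil, cytokines, virus and sorting, and whether the marrow of several mice was pooled is not given in the sources used here. How the cytokine culture itself set these genes cannot be told from these groups, since every array had it.

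Before the results, 2 arrays need mention. ND13(N51S) replicate 2 had a 3'-to-5' signal ratio of 48.9 for Gapdh and 9.09 for actin, against 1.72 to 2.71 for both in the other 11 arrays, so results are also given without it. For GFP control replicate 1 the experiment record names cells without GFP from the mutant's culture, and the label was kept. Background, set by the bacterial control probe sets at their 95th percentile, lay between 28.5 and 69.8, and 40 of the 43 genes were above it on all 12 arrays. Exceptions were Slc7a11 (11 arrays), Hmox1 (8) and Hspa1a (7). Of the 9 progenitor markers 8 were measured, all above background on every array, and Ly6a, which encodes Sca-1, was not used here. Summed signals of the T cell, B cell, plasma cell and erythroid lists lay between 92.8 and 362. In these lists Pax5, Cd4 and Alas2 were above background on 0 arrays, while Klf1 and Prdm1 were on all 12. Ms4a1 was above it on 11 arrays, Cd79a, Sdc1 and Cd8a were on 10, and the rest of those measured on 1 to 8. The 6 macrophage markers, of which Marco and C1qa were above background on 1 array each, summed to 2114 to 4095 in the GFP control, 4925 to 6966 with ND13, 3726 to 4198 with NA10 and 4355 to 8520 with ND13(N51S). For the 4 megakaryocyte markers the sums were 2685 to 4266, 5009 to 5914, 6000 to 6415 and 5003 to 7132 in the same order. Those of the 4 neutrophil markers measured were 1203 to 2648, 2540 to 3368, 2737 to 3001 and 2044 to 4227, and of the 4 mast cell markers 1202 to 1930, 1835 to 2732, 1727 to 2973 and 2767 to 5273. In these sums NA10 lay above the GFP control without overlap for neutrophil and megakaryocyte markers, ND13 for macrophage and megakaryocyte markers, and the mutant for macrophage, megakaryocyte and mast cell markers. Single mast cell markers with the mutant were split, 2 higher and 2 lower. Of the 6 macrophage markers 5 were higher with ND13 and with the mutant. Of the 4 megakaryocyte markers 4, 3 and 4 were higher with ND13, NA10 and the mutant, and all 4 neutrophil markers were with NA10. The part of these shifts in the values given below was not tested. In RNA of such a sorted population, fewer cells of a type and less RNA per cell cannot be told apart.

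No stress gene passed the test in any comparison of groups. A call needed an adjusted p under 0.05 in limma, with Benjamini-Hochberg adjustment over all probe sets, and a 1.5-fold difference. With ND13 against the GFP control 0 of 43 genes were called, where 0.0884% of all probe sets were, and 0 with the replicate number as a block, where 0.296% were. At an unadjusted p with the same fold limit it was 0 of 43 in limma (4.93% of all probe sets) and 0 by the methods' t-test (2.62%). Without ND13(N51S) replicate 2 the limma count was 3, namely Xbp1 and Ern1 higher and Hspa1b lower. In that fit 852 of the 22626 probe sets were higher and 382 lower at the same limits. With NA10 against the GFP control 0 were called (0.0133% of all probe sets; 0.0398% with the block), and 1, Slc7a11, had the unadjusted p and fold in limma (4.03%) and by the t-test (2.31%). With ND13(N51S) against the GFP control 0 were called (0% of all probe sets; 0.0265% with the block), and 2 were lower at the unadjusted p, Dnajc3 and Herpud1 (6.84%), of which Dnajc3 remained without ND13(N51S) replicate 2. By the t-test 0 were (2.88%). In limma without ND13(N51S) replicate 2, 957 of the 22626 probe sets were higher and 376 lower at the unadjusted p and fold.

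The 3 comparisons with the GFP control share its arrays, so their values stand side by side only. The median log2 fold change of the 43 genes was -0.06 for ND13, -0.03 for NA10 and -0.10 for the mutant, the last being -0.02 without its replicate 2. Over the brightest probe sets of all genes the medians were 0.01, near 0 and 0.09. Values were higher for 20 and lower for 23 of the genes in ND13, for 17 and 26 in NA10 and for 15 and 28 in the mutant, and after centring each array on its median signal for 15 and 28, 17 and 26, and 10 and 33. The 95% interval of the fold change lay within 2-fold for 31, 31 and 29 of the 43 genes and within 1.5-fold for 12, 14 and 12. This centring moved the median of all probe sets with ND13(N51S) from 0.07 to -0.04 on the log2 scale, and that of the 43 genes from -0.10 to -0.22.

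**Figure D1:**
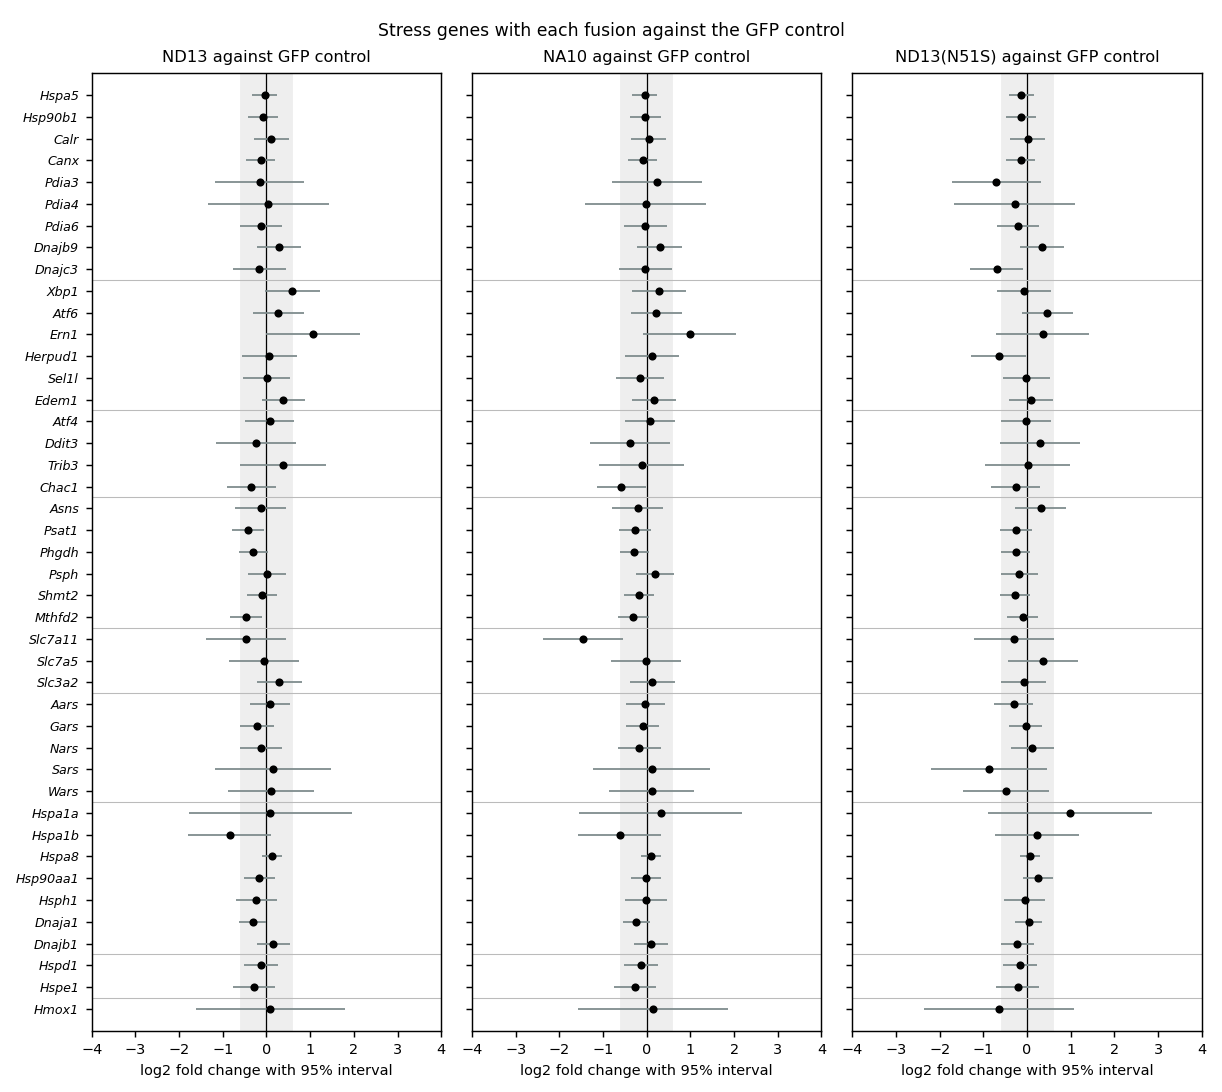
Log2 fold change of 43 stress genes (points) with 95% intervals (bars) of the 3 fusions, each set against the GFP control (3 arrays a group), grouped by role from top to bottom. The grey band spans 1.5-fold either way, most points lie inside it, and the lowest point is Slc7a11 with NA10 at -1.47.

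Of the 9 ER chaperones and folding enzymes 0 were called, with median log2 fold changes of -0.08 (ND13), -0.03 (NA10) and -0.14 (the mutant; -0.03 without its replicate 2) from the GFP control. Hspa5, the ER form of Hsp70 and the standard marker of ER stress, had signals of 12225, 9984 and 11869 in the GFP control, 10752, 10639 and 11594 in ND13 arrays, 10893, 11816 and 10180 in NA10 arrays and 10349, 9014 and 11900 in those of ND13(N51S). All groups overlapped, and the log2 fold changes were -0.04, -0.05 and -0.13 (each ± 0.13 SE). Their 95% intervals together spanned -0.42 to 0.25, within 1.5-fold. Without GFP control replicate 1 and ND13(N51S) replicate 2 these values turned to 0.01, 0.01 and 0.03. The other Hspa5 probe set, at 1543 to 3306, gave larger values of -0.30, -0.21 and -0.49 over all arrays (limma unadjusted p = 0.030 for the mutant). Its lowest signal stood on ND13(N51S) replicate 2.

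Hsp90b1, the ER form of Hsp90, had group means of 2484 to 2728, the lectin chaperones Calr and Canx of 6046 to 6534 and 4558 to 5050, and the disulfide isomerase Pdia6 of 3871 to 4304. In their brightest probe sets the log2 fold changes of these 4 genes against the GFP control lay between -0.22 and 0.11. The other Hsp90b1 probe set gave -0.26, -0.11 and, with the mutant, -1.17, with its lowest signal, 376, on ND13(N51S) replicate 2. Further probe sets of Calr, Canx and Pdia6 lay between -0.40 and 0.20. Dnajb9, an ER cochaperone and a target of Xbp1, was at 0.29, 0.30 and 0.34 (SE 0.24) with the 3 fusions, and at 0.13, 0.13 and 0.18 without GFP control replicate 1. Pdia3 and Pdia4, both disulfide isomerases, varied most in this set, with signals from 542 to 2232 and from 92.5 to 519 over the arrays, and are taken up again below.

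Dnajc3, a cochaperone of Hspa5 that also restrains the eIF2 alpha kinases, was at 821, 751 and 494 in the GFP control, 888, 496 and 489 in ND13 arrays, 802, 545 and 647 in NA10 arrays and 361, 471 and 423 in those of ND13(N51S). All 3 arrays of the mutant lay below all arrays of every other group. The log2 fold change of the mutant against the GFP control was -0.69 ± 0.28 (SE; limma adjusted p = 0.62) and -0.78 without its replicate 2. The 4 further probe sets of the gene gave -0.51, -0.36, 0.20 and, near background, -1.56, so that 1 of them ran the other way.

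The second set held the sensors Ern1 and Atf6, Xbp1, and the degradation factors Herpud1, Sel1l and Edem1. With ND13 all 6 had higher values than the GFP control, with a median log2 fold change of 0.33. Of these, Sel1l and Herpud1 were only at 0.001 and 0.07, and without GFP control replicate 1 they turned to -0.14 and -0.02. With NA10 and ND13(N51S) 5 and 3 of the 6 genes were higher, with medians of 0.19 and 0.04 (the latter 0.11 without ND13(N51S) replicate 2). None was called. The summed macrophage and megakaryocyte markers were above all arrays of the GFP control with ND13 and also with ND13(N51S), as given above. With NA10 the megakaryocyte sums were too. Whether these sums bear on the values of this set was not tested.

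Xbp1, the factor that drives much of the response, had signals of 4303, 4967 and 8202 in the GFP control and 8623, 7659 and 9158 with ND13. It was at 5506, 6288 and 8887 with NA10 and at 4685, 3864 and 8228 with ND13(N51S). In 3 groups replicate 3 stood well above the other two, while all 3 arrays of ND13 were at that height, and within each replicate number ND13 was the highest group. The log2 fold change of ND13 against the GFP control was 0.60 ± 0.29 (SE; limma adjusted p = 0.88), and with the replicate number as a block 0.60 ± 0.16 (adjusted p = 0.24). With the block and without ND13(N51S) replicate 2 the adjusted p was 0.060. The remaining 3 probe sets of the gene gave 0.93, 0.60 and 0.26 in this comparison. NA10 and ND13(N51S) were at 0.27 and -0.08, the latter at 0.15 without its replicate 2. Splicing of its mRNA by Ern1 was not measured here.

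Ern1 itself was dim, at 40.3 to 189 in the GFP control, 166 to 207 with ND13, 130 to 205 with NA10 and 62.7 to 156 with ND13(N51S). Its log2 fold change was 1.06 ± 0.50 with ND13 and 0.98 ± 0.50 with NA10 (SE; limma adjusted p = 0.87 and near 1), and both groups overlapped the GFP control, which was lowest in replicate 1, while all ND13 arrays lay above those of the mutant. Without GFP control replicate 1 the log2 fold changes were 0.51 and 0.43, and without GFP control replicate 3 they were 1.62 and 1.54. Atf6 was at 0.27, 0.22 and 0.46 (SE 0.27). Sel1l, the adaptor of the ER ubiquitin ligase, and Edem1, a lectin that sorts proteins for degradation, lay between -0.16 and 0.39.

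Herpud1, a membrane protein of the degradation complex, was at 864, 1140 and 954 in the GFP control, 1027, 1138 and 928 in ND13 arrays, 1080, 976 and 1131 in NA10 arrays and 846, 352 and 812 in those of ND13(N51S). The mutant's arrays were below those of the other groups, and its replicate 2 was lowest by far. Against the GFP control the log2 fold change was -0.65 ± 0.29 (SE; limma adjusted p = 0.64) and without that array -0.24. The other probe set gave -0.76, with its lowest signal on the same array.

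**Figure D2:**
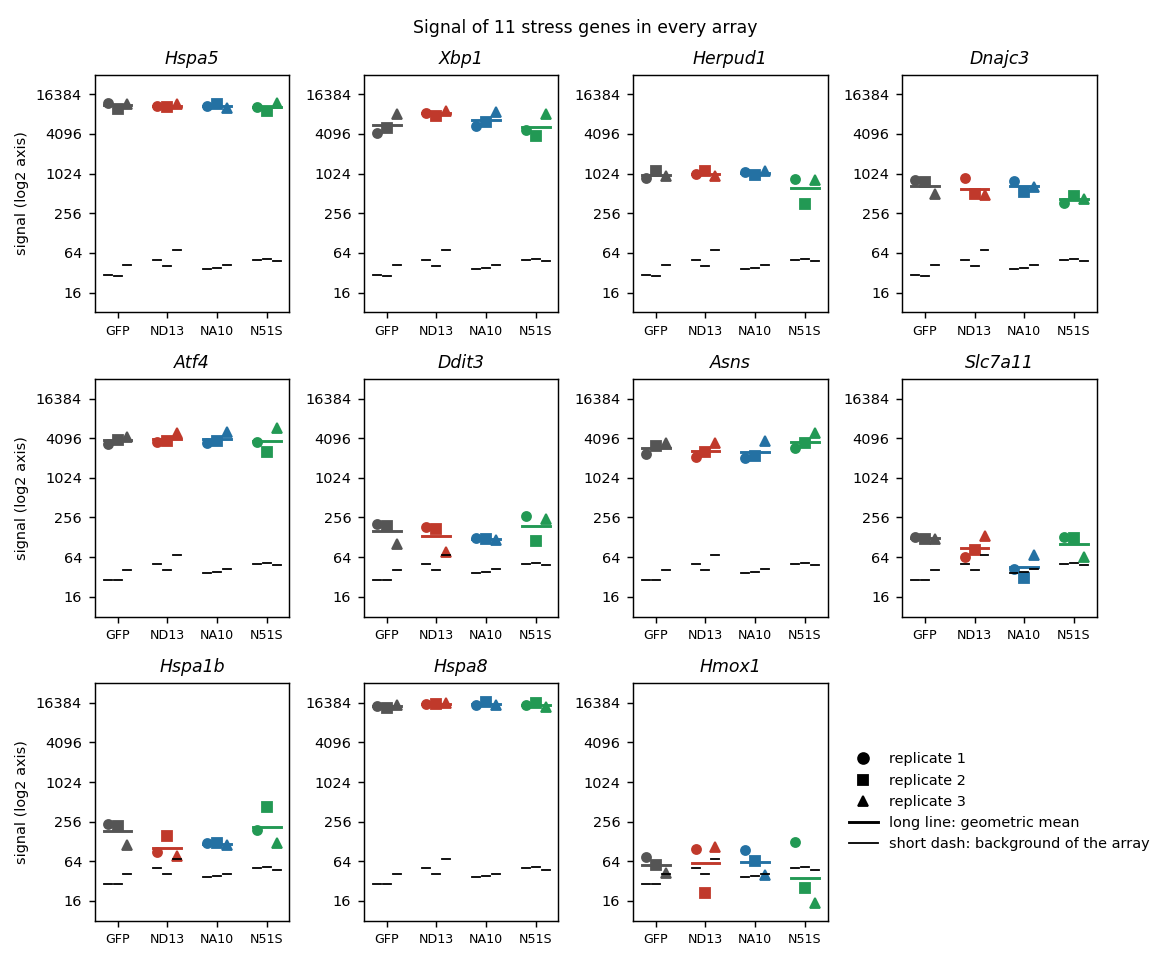
Signal of 11 stress genes in each of the 12 arrays on a log2 axis, with the replicate number as symbol, the geometric mean of each group as a long line and the background of each array as a short dash. In their brightest probe sets Hspa5 and Hspa8 stay level in all groups. Xbp1 with ND13 lies between 7659 and 9158, and Slc7a11 with NA10 lies between 31.1 and 69.3, next to background.

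The integrated stress response regulators showed no shared direction. Atf4, the central factor, was at 3366, 3866 and 4327 in the GFP control, 3643, 3650 and 4905 in ND13 arrays, 3494, 3674 and 5050 in NA10 arrays and 3560, 2552 and 5918 in those of ND13(N51S). Replicate 3 was the highest array of every group, and the groups overlapped throughout, with log2 fold changes of 0.07, 0.07 and -0.02 (SE 0.26). In a further Atf4 probe set, at 683 to 2117, replicate 3 was instead the lowest array of every group. Its log2 fold changes were -0.12, -0.20 and -0.12, and those of another, near background, -0.90, -1.23 and -0.63. Much of the control of Atf4 is exerted on its translation, which these arrays did not read.

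Ddit3, also known as CHOP, which promotes cell death in lasting stress, was at 204, 190 and 101 in the GFP control and 185, 171 and 76.0 with ND13. With NA10 it was at 124, 121 and 117, and with ND13(N51S) at 268, 112 and 239. All groups overlapped, and the log2 fold changes were -0.24, -0.39 and 0.29 (SE 0.42). Trib3, a pseudokinase induced by Atf4 and Ddit3, was at 0.38, -0.12 and 0.02 (SE 0.45). Chac1, which degrades glutathione, was at 398 to 416 in the GFP control and 224 to 337 with NA10, without overlap, a log2 fold change of -0.58 ± 0.26 (SE; limma adjusted p near 1). With ND13 and the mutant it was at -0.35 and -0.26.

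In the set of asparagine, serine and folate enzymes 5 of 6 genes had lower values with each fusion than in the GFP control, at median log2 fold changes of -0.22 (ND13), -0.24 (NA10) and -0.21 (the mutant; -0.13 without its replicate 2). None was called. Mthfd2, the mitochondrial folate enzyme, was at 2649 ± 153 in the GFP control and 1905 ± 161 with ND13 (SD, 3 arrays), and the arrays of the groups did not overlap. The log2 fold change was -0.48 ± 0.17 (SE; limma adjusted p = 0.69), and -0.30 and -0.10 with NA10 and ND13(N51S). Its second probe set was at -0.18 with ND13. Psat1, the aminotransferase of serine synthesis, was at 4015 ± 348 and 2993 ± 315 (SD, 3 arrays) in the same groups, again without overlap, a log2 fold change of -0.43 ± 0.17 (SE; limma adjusted p = 0.77). The other Psat1 probe set gave -0.11.

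Phgdh, which catalyses the first step of serine synthesis, was at -0.30, -0.28 and -0.26 (SE 0.15) on the log2 scale, or -0.19, -0.18 and -0.16 without GFP control replicate 1. Shmt2, which turns serine into glycine in mitochondria, was at -0.10, -0.18 and -0.27. Psph, the last enzyme of serine synthesis, was at 0.02, 0.19 and -0.17. Asns, which makes asparagine and is a textbook target of Atf4, was at 2363, 3103 and 3413 in the GFP control and 2138, 2529 and 3486 with ND13. It was at 2022, 2197 and 3671 with NA10 and at 2866, 3433 and 4881 with ND13(N51S). Replicate 3 was the highest array in every group, and within each replicate number the mutant was the highest group. Its log2 fold change was 0.31 against the GFP control, where ND13 and NA10 were at -0.14 and -0.21 (SE 0.27). With the block the mutant's adjusted p was 0.40. The other Asns probe set was highest in replicate 2 of every group, at 1585 (GFP control), 1293 (ND13), 1193 (NA10) and 1499 (ND13(N51S)). In that probe set the mutant was the highest group with the number 3 only.

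Of the 3 amino acid transporter genes, Slc7a11 had the largest difference of all the stress genes. It encodes the cystine and glutamate exchanger that feeds glutathione synthesis. Its signal was 128, 122 and 121 in the GFP control, 64.6, 82.6 and 134 in ND13 arrays, 42.0, 31.1 and 69.3 in NA10 arrays and 128, 123 and 64.4 in those of ND13(N51S). All NA10 arrays lay below all GFP control arrays, and 1 of them was not above background. The log2 fold change with NA10 was -1.47 ± 0.43 (SE; limma adjusted p = 0.71; with the block 0.49), and between -1.78 and -1.20 when any 1 array was left out. With the median background added to every signal before the log it was -0.92. ND13 and ND13(N51S) were at -0.47 and -0.30. A single probe set reads this gene. Slc7a5 and Slc3a2, the light and heavy chain of the large neutral amino acid transporter, were at log2 fold changes of -0.06 and 0.29 for ND13, -0.02 and 0.13 for NA10, and 0.36 and -0.08 for the mutant.

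The 5 tRNA synthetases, which charge tRNA with alanine, glycine, asparagine, serine and tryptophan, were at log2 fold changes of -0.22 to 0.15 with ND13 and -0.17 to 0.11 with NA10. With ND13(N51S) the range was -0.88 to 0.12, with the low end set by replicate 2. On that array Sars was at 289 and Wars at 362, where the other 11 arrays read 1633 to 3583 and 1294 to 1890, and Aars was at 1533 against 2598 to 3111. Without it the median of the 5 genes with the mutant was 0.06 in place of -0.31. In all, 16 of the 43 stress genes (37.2%) had their lowest signal on that array, where 16.8% of all genes did.

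Cytosolic heat shock genes were likewise not called. Hspa8, the constitutive Hsp70, was at 14878, 13581 and 14974 in the GFP control, 15495, 15878 and 16051 in ND13 arrays, 14902, 16686 and 15058 in NA10 arrays and 14903, 16435 and 14105 in those of ND13(N51S). With ND13 the arrays were just above those of the GFP control, at a log2 fold change of 0.13 ± 0.11 (SE; limma adjusted p near 1), and those of NA10 and the mutant overlapped the control, at 0.10 and 0.06. The 95% intervals of this probe set together ran from -0.17 to 0.36. Further Hspa8 probe sets did not share 1 direction. With ND13, NA10 and the mutant they gave 0.06, 0.11 and 0.18, then -0.18, -0.18 and -0.26, and, in the dimmest, -0.23, -0.57 and 0.20.

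Hspa1b, a stress-inducible Hsp70, was dim, at 240, 220 and 114 in the GFP control, 87.8, 153 and 77.4 in ND13 arrays, 122, 119 and 114 in NA10 arrays and 193, 422 and 120 in those of ND13(N51S). The groups overlapped through GFP control replicate 3, and the highest value stood on the array of the mutant named above. Log2 fold changes were -0.84 ± 0.44 with ND13 (SE; limma adjusted p = 0.92), -0.62 with NA10 and 0.23 with the mutant, the last being -0.26 without its replicate 2. The other probe sets gave -1.26, -1.25 and -0.51, and -0.88, -0.94 and -0.11. Hspa1a, whose sequence is nearly identical, was above background on 7 arrays, with signals from 9.52 to 97.3, and probes may be shared between the pair, so that neither gene is certain.

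Among the remaining cytosolic genes, Dnaja1, a cochaperone of Hsp70, was at 7202 ± 281 in the GFP control, 5835 ± 1069 with ND13 and 6095 ± 219 with NA10 (SD, 3 arrays), log2 fold changes of -0.32 ± 0.14 and -0.24 ± 0.14 (SE; limma adjusted p = 0.85 and near 1). Dnajb1, another cochaperone of Hsp70, was at 0.16 and 0.10, the nucleotide exchange factor Hsph1 at -0.23 and -0.01, and Hsp90aa1, the inducible Hsp90, at -0.16 and -0.02. The mitochondrial chaperonin subunits Hspd1 and Hspe1 were at -0.13 and -0.28 with both ND13 and NA10, and at -0.17 and -0.22 with the mutant.

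Hmox1, which breaks down heme and answers oxidative stress, was near background, at 73.7, 56.3 and 43.2 in the GFP control, 96.8, 21.0 and 107 in ND13 arrays, 96.7, 65.3 and 39.0 in NA10 arrays and 124, 25.1 and 15.0 in those of ND13(N51S). Of these 12 values 8 were above the background of their array, and the groups overlapped. Its standard error of 0.80 on the log2 scale left differences of 2-fold undetectable.

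**Figure D3:**
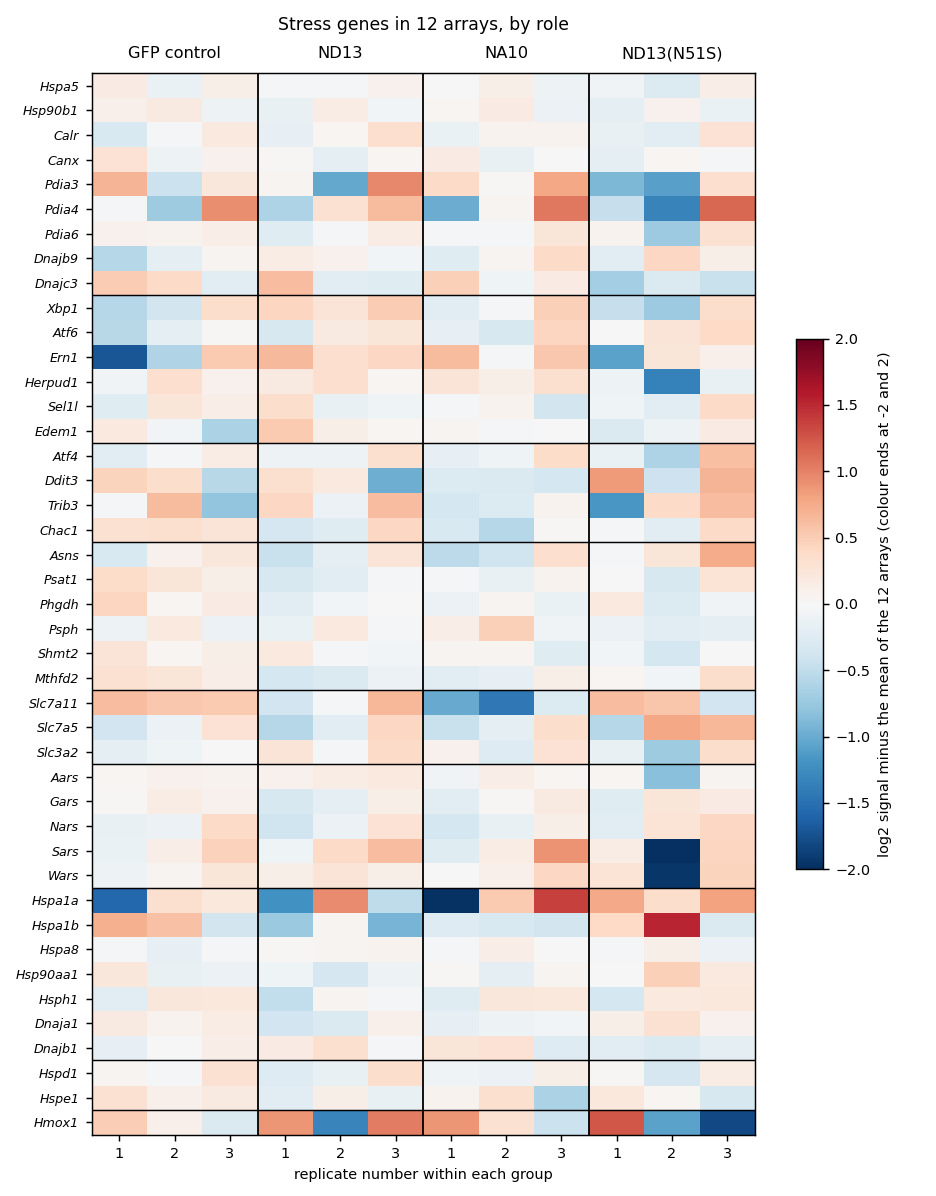
Log2 signal of 43 stress genes minus the mean of the 12 arrays (colour, red higher and blue lower, ends at -2 and 2), with arrays in columns by group and replicate number and genes in rows by role. Blue cells gather in ND13(N51S) replicate 2, where 16 of the 43 genes were lowest, and several rows are red in replicate 3 of each group.

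The fusions were next compared with the mutant and with each other. For ND13 against ND13(N51S) 0 of 43 genes were called (0.0133% of all probe sets; 0.0796% with the block). At the unadjusted p and 1.5-fold 3 were, Herpud1 at 0.72 and Xbp1 at 0.67 higher and Hspa1b at -1.08 lower (6.99% of all probe sets), and by the t-test 0 (2.98%). Without ND13(N51S) replicate 2 these 3 values were 0.31, 0.45 and -0.58, and the 1 gene at the unadjusted p and fold was Ddit3, at -0.92. Of all 22626 probe sets 574 were then higher and 849 lower at these limits. The median of the 43 genes was 0.05, or -0.03 without that array, and that of all genes -0.07.

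For NA10 against ND13(N51S) 0 were called (0.00884% of all probe sets; 0.0442% with the block). At the unadjusted p and fold Herpud1 (0.77) and Dnajc3 (0.66) were higher and Slc7a11 (-1.16) was lower, 3 of 43 where 7.8% of all probe sets were, and by the t-test it was Dnajc3 alone (3.88%). Without ND13(N51S) replicate 2 the genes were Dnajc3, at 0.75, and Ddit3, at -1.07, where 567 of the 22626 probe sets were higher and 1111 lower. For ND13 against NA10 0 were called (0.0177% of all probe sets; 0.0398% with the block), with Slc7a11 (0.99 ± 0.43 SE) at the unadjusted p and fold (3.31%) and 0 genes by the t-test (2.1%). The log2 fold changes between these 2 fusions lay between -0.39 and 0.99 with a median of 0.00, and the interval was within 2-fold for 33 of 43 genes.

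For ND13 and NA10 together against the GFP control and ND13(N51S) together 0 were called (0.0354% of all probe sets; 0.102% with the block). At the unadjusted p and fold Ern1 was higher at 0.84 and Slc7a11 and Hspa1b were lower at -0.82 and -0.85, 3 of 43 where 5.34% of all probe sets were, and the t-test gave the last 2 (3.82%). Without ND13(N51S) replicate 2 the limma count was 4, where 548 of the 22626 probe sets were higher and 633 lower. Xbp1 was at 0.47 ± 0.12 (SE) with the block, with the smallest adjusted p of the stress genes in this comparison, 0.14.

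In contrast to the groups, the replicate number separated part of these genes. In limma's F test of the replicate number, with the groups in the model, 7 of the 43 genes were called at an adjusted p under 0.05, where 5.22% of all probe sets and 4.48% of the brightest probe sets of all genes were. They were Asns, Hsph1, Nars, Xbp1, Slc7a5, Pdia4 and Pdia3, with adjusted p from 0.0093 to 0.038. The number 3 had the highest mean signal for 26 of the 43 genes (60.5%), against 37.2% of all genes.

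By role, 2 of the 7 were ER folding enzymes, and 0 were among the 4 integrated stress response regulators or the 2 mitochondrial chaperonin subunits. From these roles Atf4 and Hspd1 fell just short, at F test adjusted p of 0.061 and 0.070. Without ND13(N51S) replicate 2 they were at 0.0068 and 0.046. Asns had signals of 2022 to 2866 in the 4 arrays numbered 1, 2197 to 3433 in those numbered 2 and 3413 to 4881 in those numbered 3. Slc7a5 was at 414 to 471, 527 to 1059 and 756 to 974 with the numbers 1, 2 and 3, and Nars, the asparagine tRNA synthetase, at 3693 to 4411, 4399 to 5909 and 5295 to 6487. In the brightest probe sets of these amino acid response genes the arrays numbered 3 lay above all those numbered 1. The other Asns probe set was at 942 to 1150 in number 1 and 1012 to 1388 in number 3. The other Nars probe set was at 2846 to 4530 and 3605 to 4962, so in both the numbers overlapped. Pdia4 was at 118 to 229, 92.5 to 287 and 363 to 519, and Xbp1 at 4303 to 8623, 3864 to 7659 and 8202 to 9158. In this probe set of Pdia4 every array numbered 3 was above all others. The other Pdia4 probe set, near background, was at 33.5 to 85.1, 45.7 to 122 and 54.1 to 90.8, so there the numbers overlapped. Pdia3 was at 617 to 1837, 542 to 1170 and 1339 to 2232. Hsph1 differed from the rest, at 2396 to 2930 in number 1 against 3534 to 3949 and 3301 to 3927 in the other two. What distinguished the experiments of each number is not given in the sources used here.

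**Figure D4:**
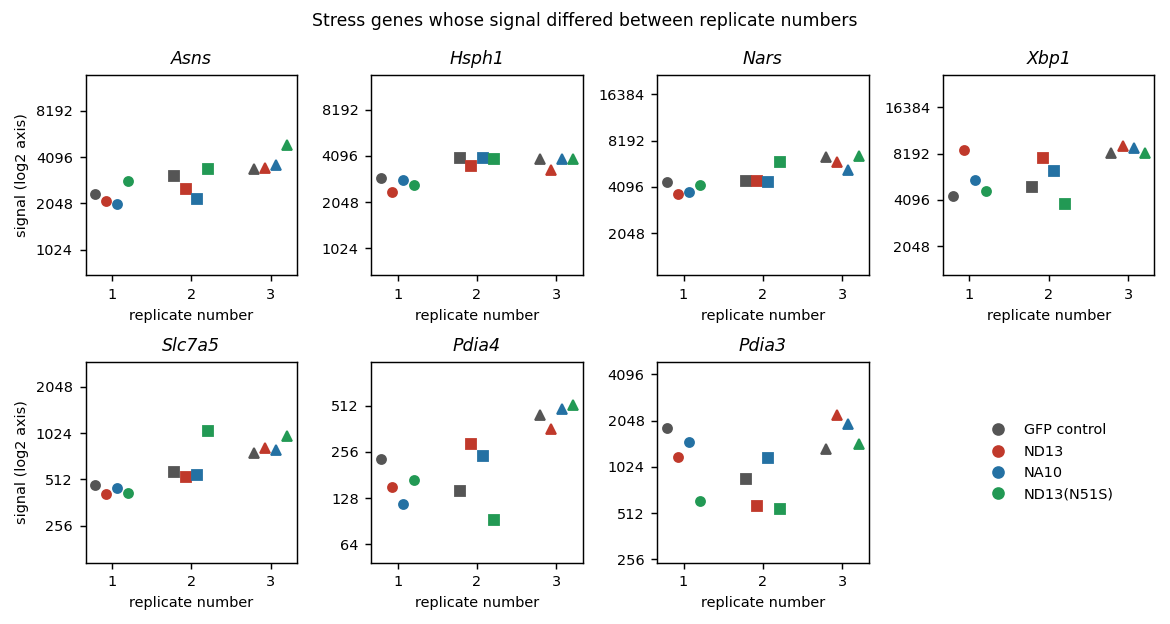
Signal on a log2 axis of the 7 stress genes called in the F test of the replicate number, by replicate number, with the group as colour and 1 point per array. Each gene is shown by its brightest probe set. For Pdia4 the 4 arrays numbered 3 lie between 363 and 519 and above the other 8, and for Hsph1 the 4 arrays numbered 1 lie below the other 8.

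The count of 7 depended on single arrays. Leaving out NA10 replicate 3 took it to 0. It was 2 when replicate 1 of NA10 or replicate 1 or 3 of ND13 was left out, 3 without replicate 3 of the GFP control or of the mutant, and 4 without replicate 2 of ND13 or of NA10. Without ND13(N51S) replicate 2 it was 11, and without this array and GFP control replicate 1 together 9. The share of all probe sets called in each of these fits is not given here. Whether the count moved with that share was therefore not tested.

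The other genes of these pathways were read from lists of 117 genes, of which 107 were measured. In limma 0 were called in any comparison without the block, where at most 4 genes of a list had an unadjusted p under 0.05. These 4 were of the 32 heat shock genes and cochaperones, for ND13 and NA10 together against the GFP control and ND13(N51S) together. In that comparison 1807 of the 22626 probe sets had such a p. For the 25 further ER genes the median log2 fold change from the GFP control was 0.02 (ND13), 0.01 (NA10) and 0.02 (the mutant; 0.08 without its replicate 2), and for the 25 further genes of the amino acid response near 0 with ND13 and NA10 and 0.13 with the mutant, the last turning to -0.09 without ND13(N51S) replicate 2. For 13 other cytosolic tRNA synthetases it was -0.13, -0.16 and -0.14, with 12, 9 and 9 of them at lower values, and the mutant's median was -0.03 without its replicate 2. For 32 further heat shock genes and cochaperones it was -0.16, -0.12 and -0.01 (0.02 without that array), with 25, 25 and 17 at lower values, and for 12 oxidative stress genes -0.12, -0.10 and 0.10 (0.16 without it). With the block 1 gene was called, Vldlr, a lipoprotein receptor and target of Atf4, at -1.69 ± 0.20 (SE; limma adjusted p = 0.014) for ND13 against ND13(N51S) and -1.46 ± 0.20 (adjusted p = 0.033) for ND13 against NA10.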

How the data were processed

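The authors deposited signal intensity values on a linear scale, which MAS5 (named in the submitters' processing notes without a version) had made from 12 scanned MOE430A arrays, each scaled to a trimmed mean of 500.2. No GC-RMA values were used here, and the 2 experiment records held no measurement. Of 22690 probe sets 64 controls were left out, and 20380 of the rest carried 1 gene, 691 several and 1555 none.

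Log2 signals (floor 0.01) were fitted in limma 3.58.1 (R 4.3.3; lmFit, eBayes with trend and robust) to the 12 arrays, with a mean of 13.4 degrees of freedom. The fit was tested on simulated data. The methods' t-test (unadjusted p under 0.05, 1.5-fold), which the study applied to GC-RMA values, was run on the same log2 signals with unequal variances as an alternative. For 3 arrays a group the smallest exact two-sided permutation p is 0.10, so the number of arrays limits precision. The 44 genes and all lists were chosen with earlier results of these data known. Genes given array by array had an unadjusted p under 0.05 with 1.5-fold in a comparison with the GFP control or belonged to 9 landmarks. The labels number the replicates, and deviations from the group means correlated between arrays of the same number at r = 0.11 to 0.60 over probe sets above the median (0.03 to 0.16 over all) and between different numbers at -0.42 to 0.11, so the number was used as a block beside the fit without it.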

Additional observations from a re-analysis of the deposited data

How the results depend on the processing

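In the 7 comparisons of groups 0 of 43 stress genes were called in the fit without and with the replicate block. The same held in all 23 alternatives run. Among these was the methods' t-test after Benjamini-Hochberg adjustment, which called 0 of all 22626 probe sets in every comparison. That test could therefore call no stress gene. For the other alternatives the share of all probe sets called is not given here. The medians of the 43 genes moved by less than the spread between arrays. With the block 67 probe sets in place of 20 were called for ND13 against the GFP control. A fit of the compared groups alone could not differ for the pooled comparison and was not run there. The replicate-number count ran from 0 to 11 when each array was left out in turn, with no share of all probe sets set beside it. Values of genes that changed sign were all uncalled, and the cause was not tested. Without GFP control replicate 1 and ND13(N51S) replicate 2, log2 fold changes against the GFP control became 0.0134 (ND13), 0.00755 (NA10) and 0.0278 (ND13(N51S)) for Hspa5, -0.0231, -0.0260 and 0.17 for Atf4, -0.0588 for Hspa1b with ND13(N51S), 0.11 for Dnajc3 with NA10 and -0.0220 for Herpud1 with ND13. Array weights gave 0.10 for Xbp1, 0.14 for Atf4 and -0.10 for Hspa1b with ND13(N51S), and -0.23 for Hmox1 with ND13. Median centring gave -0.0035 for Atf4 and -0.00560 for Herpud1 with ND13 and -0.0477 for Hspa8 with ND13(N51S), where quantile normalisation gave -0.0340. The replicate block without ND13(N51S) replicate 2, an alternative chosen after seeing the data, gave 0.0801 for Xbp1, 0.22 for Atf4 and -0.11 for Hspa1b with the mutant. Leaving out each array in turn gave, with ND13, -0.13 to 0.0134 for Hspa5, -0.0719 to 0.16 for Atf4, -0.56 to 0.17 for Ddit3, -0.33 to 0.0215 for Asns, -0.32 to 0.85 for Hmox1 and -0.0220 to 0.18 for Herpud1. With NA10 it gave -0.14 to 0.00755 for Hspa5, -0.10 to 0.17 for Atf4, -0.16 to 0.49 for Hmox1 and -0.26 to 0.11 for Dnajc3. With ND13(N51S) it gave -0.40 to 0.20 for Xbp1, -0.35 to 0.26 for Atf4, -0.0294 to 0.68 for Ddit3, -0.48 to 0.0201 for Slc7a11 and -0.26 to 0.65 for Hspa1b. Slc7a11, Hmox1 and Hspa1a were near background, which limits their folds.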
